A study of Mus musculus with 6 samples.

Results

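The delta protocadherins are 9 genes, Pcdh1, Pcdh7, Pcdh8, Pcdh9, Pcdh10, Pcdh17, Pcdh18, Pcdh19 and Pcdh20, found by matching Ensembl identifiers to these symbols among 21553 genes with values. All 9 were found, and all 9 passed the filter on low counts. RNA was sequenced from hippocampal neurons of C57bl/6 mouse embryos at E16.5, grown for 10 days in culture. Neurons were left untreated or were harvested 0.5 h or 3 h after 55 mM KCl was added, with 2 libraries per group and no other treatment or genetic change in the labels. Raised KCl depolarises neurons and opens voltage-gated calcium channels, and the study's title places it within work on an activity-dependent splicing network. The design text calls the libraries biological duplicates without saying what was duplicated, so p-values measure only the spread between these libraries.

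Protocadherins are single-pass membrane proteins of the cadherin superfamily. Delta protocadherins, unlike the clustered alpha, beta and gamma protocadherins, are encoded by separate genes and mediate weak, calcium-dependent adhesion between cells that carry the same member. Their cytoplasmic tails differ: Pcdh1, Pcdh7 and Pcdh9 belong to the delta-1 group, as does Pcdh11x, which is not among the 9 genes, and carry a motif that binds protein phosphatase 1, whereas Pcdh8, Pcdh10, Pcdh17, Pcdh18 and Pcdh19 belong to the delta-2 group, several of which recruit the WAVE complex that drives actin branching. Pcdh20 is usually placed beside the delta-1 and delta-2 groups. In hippocampus the family is known for roles in axon growth, synapse formation and activity-dependent removal of adhesion from synapses.

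The libraries held 98882007 to 141865913 counts, and a member had 990 to 82090 counts in a library. Levels are given as the authors' cRPKM, taken here to be a read count per length of gene and per library total since no definition is given, and errors of means are SD over 2 libraries. Neuronal markers were present throughout: the 7 pan-neuronal genes summed to between 864.73 and 1433.35 cRPKM in the 6 libraries. The 6 astrocyte markers also reached 707.28 to 1709.03 cRPKM, so the cultures were not pure neurons, while the 6 microglial markers summed to at most 1.21 cRPKM. In such bulk RNA, fewer cells of a type and less RNA per cell cannot be told apart. The activity markers Fos, Npas4, Arc, Nr4a1 and Bdnf were all called higher at 3 h, and Fos stood at 344 and 271 cRPKM at 3 h against 7.98 and 8.14 cRPKM in untreated neurons. Bdnf lost its call without untreated replicate 1 or 2 (adjusted p = 0.069 and 0.064, edgeR) and Npas4 without untreated replicate 2 (0.054). At 0.5 h Fos, Arc and Nr4a1 were called higher. Each of these calls was lost without untreated replicate 1 and without untreated replicate 2. The log2 fold changes there were 4.81 and 4.81 for Fos, 2.75 and 3.10 for Arc and 3.28 and 3.48 for Nr4a1. Arc was also lost with only the 4 libraries compared (adjusted p = 0.15, edgeR), without 0.5 h replicate 2 and without either 3 h library. Bdnf, at a log2 fold change of 0.01, was not called at 0.5 h. Npas4 was not called at 0.5 h either (adjusted p = 0.054, edgeR), at 111 and 101 cRPKM against 4.84 and 4.55 cRPKM in untreated neurons. A gene not called at 0.5 h can therefore still have changed. All counts of called genes rest on an adjusted p under 0.05 in edgeR's quasi-likelihood test, with Benjamini-Hochberg adjustment over 15895 genes.

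Of the 9 members, 1 fell after 3 h of KCl, where 15.6% of all genes were called and 6.84% were called lower. Pcdh1 was 2.38-fold lower than in untreated neurons and no longer led the family by level. Pcdh8 moved the other way in value, to a mean 2.41-fold higher in the fit, but its libraries at 3 h differed from each other by 1.94 times and it did not pass the test. The other 7 members were not called, with Pcdh9, Pcdh10 and Pcdh17 within 0.12 of 0 on the log2 scale at 3 h. At 0.5 h no member was called in either direction, where only 0.0377% of all genes were called.

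**Figure D1:**
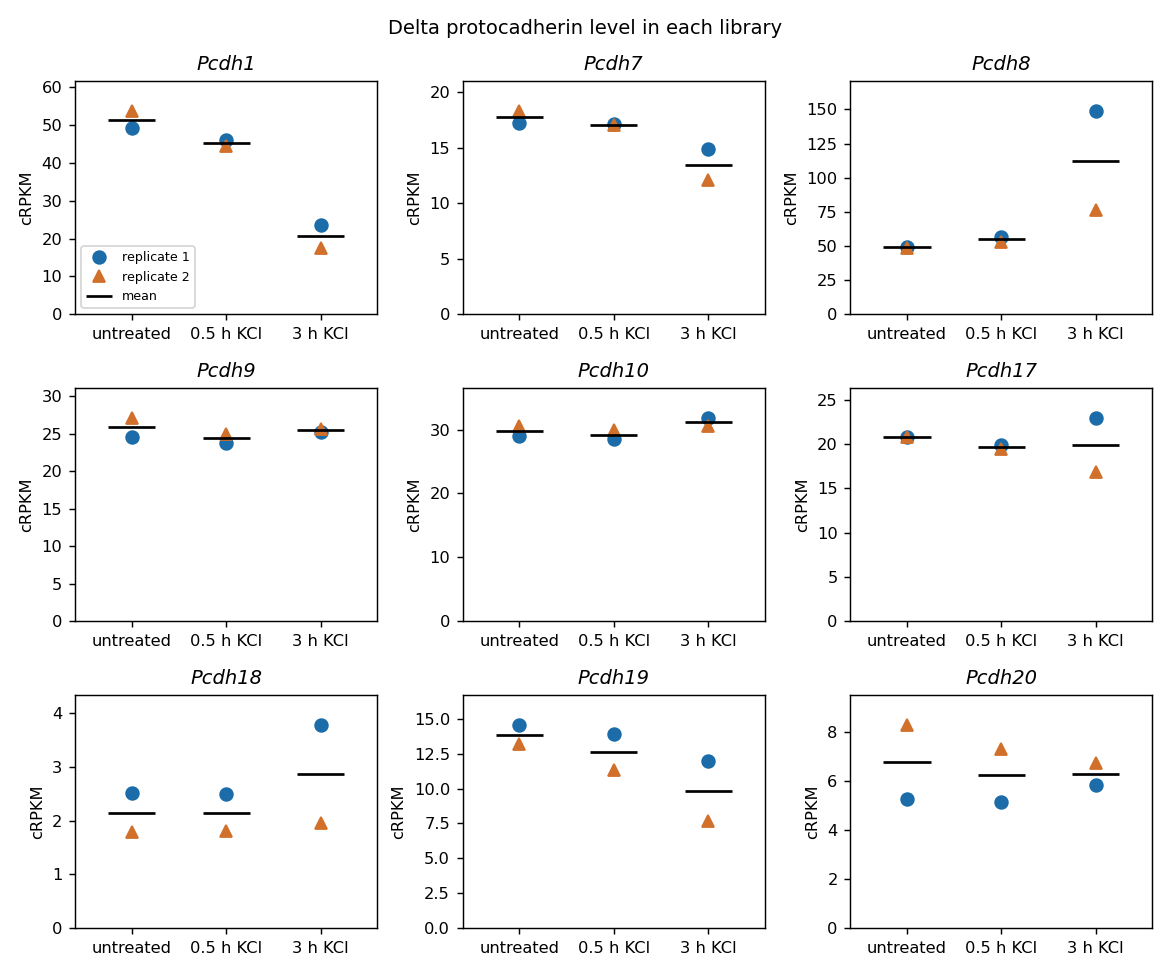
Level of each delta protocadherin in cRPKM (vertical axes from 0, each with its own range) in neurons without KCl, with KCl for 0.5 h and with KCl for 3 h; circles are replicate 1, triangles replicate 2 and bars the mean of 2 libraries. Pcdh1 sits at 17.6 and 23.7 cRPKM at 3 h, under all 4 earlier libraries, and Pcdh8 sits at 76.4 and 149 cRPKM, above all 4.

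In the delta-1 group, Pcdh1 (ENSMUSG00000051375, on chromosome 18) is best known as an adhesion protein of airway epithelium in humans and is also expressed in the nervous system. Its level was 49.1 and 53.6 cRPKM in untreated neurons, 46.0 and 44.4 cRPKM at 0.5 h and 23.7 and 17.6 cRPKM at 3 h. Both libraries at 3 h lay far below all 4 others, and both at 0.5 h lay slightly below both untreated ones. The fall at 3 h against untreated was −1.25 ± 0.18 on the log2 scale (SE; 95% interval −1.70 to −0.81), with an adjusted p of 0.014 in edgeR. Taken by replicate number, the 3 h level was 0.48 and 0.33 of the untreated level. Only 238 of 15895 genes had a lower log2 fold change, and 5.34% of genes had one at least as far from 0. Without untreated replicate 1 or untreated replicate 2 the value was −1.31 and −1.20 and the call was lost (adjusted p = 0.072 and 0.095, edgeR), in fits that called 74 and 38 genes in all. The other 11 alternatives kept the call, with values from −1.53 to −1.0 over all 13. The summed pan-neuronal markers were also lower at 3 h, at 1088 and 865 cRPKM against 1433 and 1404 cRPKM in untreated neurons, with 0 of 7 called, none at 0 and a median log2 fold change of −0.38. Much of that gap was Tubb3 (253 and 158 cRPKM at 3 h against 607 and 453 cRPKM). Nefl stood at 128 and 109 cRPKM at 3 h against 68.0 and 115 cRPKM, higher in replicate 1 and lower in replicate 2. The 6 interneuron markers summed to 259 and 363 cRPKM at 3 h against 347 and 559 cRPKM in untreated neurons, with a median of −0.82. The 6 astrocyte markers summed to 763 and 1709 cRPKM at 3 h against 707 and 1118 cRPKM, with a median of 0.42, and 0 members of either list were called. The part of these lists in the fall of Pcdh1 was not tested.

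Pcdh7 (ENSMUSG00000029108, chromosome 5) encodes a delta-1 protocadherin that binds protein phosphatase 1 and the phosphatase inhibitor Set. It stood at 17.3 and 18.3 cRPKM in untreated neurons, 17.2 and 17.0 cRPKM at 0.5 h and 14.9 and 12.1 cRPKM at 3 h. The 3 h libraries were both below the others, by a modest margin. The log2 difference at 3 h was −0.34 ± 0.14 (SE; 95% interval −0.67 to 0.00; adjusted p = 0.15, edgeR), and it passed only without 3 h replicate 1 (−0.54, adjusted p = 0.021). In a later GENCODE annotation, 21.1% of the exonic bases of Pcdh7 overlap an opposite-strand gene, 4932441J04Rik, and the library kit does not mark strand, so reads of both cannot be told apart.

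Pcdh9 (ENSMUSG00000055421, chromosome 14) is a delta-1 protocadherin of neuronal cell contacts. Its level was 24.6 and 27.1 cRPKM in untreated neurons, 23.8 and 24.98 cRPKM at 0.5 h and 25.3 and 25.7 cRPKM at 3 h. The groups at 3 h and untreated overlapped, and the interval of the log2 difference ran from −0.18 to 0.25. Summed over these 3 delta-1 genes, the level was 63.8 and 55.4 cRPKM at 3 h against 91.0 and 98.9 cRPKM in untreated neurons. Most of that gap was Pcdh1.

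In the delta-2 group, Pcdh8 (ENSMUSG00000036422, chromosome 14) is the mouse counterpart of arcadlin, first described as an activity-induced protein of rat hippocampus that binds N-cadherin and, through the kinases Taok2 and p38, brings about its uptake from the synaptic surface. Its level was 49.2 and 48.7 cRPKM in untreated neurons, 56.8 and 53.1 cRPKM at 0.5 h and 149 and 76.4 cRPKM at 3 h. The untreated libraries were nearly identical, the 0.5 h libraries lay just above them, and the 3 h libraries lay well above and far apart. By replicate number, the 3 h level was 3.02 and 1.57 times the untreated level. The fitted log2 difference at 3 h was 1.27 ± 0.33 (SE; 95% interval 0.46 to 2.07), which did not pass (adjusted p = 0.053, edgeR). With replicate number as a block the value was 1.20 ± 0.26 and passed (adjusted p = 0.024). DESeq2, library totals and the fit with no filter also placed it past the threshold, at adjusted p = 0.00061, 0.047 and 0.044. It did not pass with RLE factors (0.052), limma-voom (0.062) or only the 4 libraries compared (0.084), nor without untreated replicate 1 or 2 (0.18 and 0.23) or 0.5 h replicate 1 or 2 (0.082 and 0.081). The value without 3 h replicate 1 was 0.65 (adjusted p = 0.023, edgeR) and without 3 h replicate 2 it was 1.71 (adjusted p = 0.0093), so the size rests heavily on which 3 h library is used. Of all genes tested, 597 had a higher log2 fold change. The same 3 h libraries also differed in the glial gene Gfap, at 24.6 cRPKM in replicate 1 and 475 cRPKM in replicate 2. That gap ran through the untreated pair too (22.4 and 307 cRPKM). The other astrocyte markers differed far less. Aldoc, the next widest, stood at 211 and 467 cRPKM at 3 h and at 216 and 322 cRPKM in untreated neurons. The part of these genes in the spread of Pcdh8 was not tested. An opposite-strand gene, Gm9748, overlaps 9.6% of the exonic bases of Pcdh8.

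The start regions of Pcdh8 and Pcdh10 are shown because both genes are known from earlier work for links to neuronal activity, while their fitted log2 differences at 3 h, given with each gene, were far apart (1.27 and 0.12). Each window holds 250 bases before and 50 after a RefSeq start (GRCm38.p6; the deposited values carry no positions), at chr14:79771263-79771562 on the minus strand for Pcdh8 and chr3:45378148-45378447 on the plus strand for Pcdh10. Both are written 5′ to 3′ along the gene, and capitals mark the matches described next.
Pcdh8: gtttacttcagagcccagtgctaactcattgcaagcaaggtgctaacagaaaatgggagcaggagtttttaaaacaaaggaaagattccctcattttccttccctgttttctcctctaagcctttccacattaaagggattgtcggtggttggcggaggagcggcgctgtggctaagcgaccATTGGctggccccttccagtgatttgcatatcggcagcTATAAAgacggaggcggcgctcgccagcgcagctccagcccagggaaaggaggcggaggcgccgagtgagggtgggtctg
Pcdh10: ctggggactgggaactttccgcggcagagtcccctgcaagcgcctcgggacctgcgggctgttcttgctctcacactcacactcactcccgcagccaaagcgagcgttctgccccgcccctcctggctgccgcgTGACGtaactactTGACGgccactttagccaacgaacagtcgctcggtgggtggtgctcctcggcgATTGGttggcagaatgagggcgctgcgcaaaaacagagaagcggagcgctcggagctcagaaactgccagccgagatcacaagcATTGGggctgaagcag
Both strands were searched for short letters known from activity-dependent and core promoters, a set chosen after the windows had been seen. The cAMP response element was searched as TGACGTCA, and its short form, which lies within it, as TGACG. The site of AP-1 factors was searched as TGANTCA and that of Egr1 as GCGTGGGCG, and a MEF2-like motif was searched as well. The E-box was searched as CACGTG, the TATA box as TATAAA and the CCAAT box by its own letters. Pcdh8 held TATAAA starting 30 bases before the start, which occurs in 13.6% of 32817 windows of the table, and CCAAT on the opposite strand (ATTGG) 68 bases before it, which occurs in 37.4%. Pcdh10 held TGACG 116 and 103 bases before its start, against 20.8% of windows with at least 1 match, and ATTGG 50 bases before and 35 after it. No window was found for Pcdh1, the called member, so the search does not cover it. Windows were found for 8 of the 9 genes, 9 windows in all. TATAAA was present in the Pcdh8 window alone among them. Pcdh9 held the short form and the CCAAT box, Pcdh17, Pcdh18, Pcdh19 and Pcdh20 held the CCAAT box, and Pcdh7 held none of the letters. None of the 9 windows held the full cAMP response element, the AP-1, MEF2-like or Egr1 letters or the E-box, which occur in 1.79%, 7.81%, 3.69%, 0.612% and 7.15% of windows. These matches are descriptions of letters and not sites of binding.

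Pcdh10 (ENSMUSG00000049100, chromosome 3) supports axon growth and, downstream of Mef2 and the fragile X protein Fmr1, delivers the scaffold PSD-95 for degradation during synapse elimination in mouse neurons. Its level was 29.0 and 30.6 cRPKM in untreated neurons, 28.5 and 29.9 cRPKM at 0.5 h and 31.8 and 30.6 cRPKM at 3 h. The values barely moved, although both 3 h libraries were a little above both untreated ones. The log2 difference at 3 h was 0.12 ± 0.10 (SE; 95% interval −0.11 to 0.36; adjusted p = 0.41, edgeR), so a change as large as that fitted for Pcdh1 or Pcdh8 lay outside its interval.

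Pcdh17 (ENSMUSG00000035566, chromosome 14) organises presynaptic assembly in corticobasal circuits of the mouse. It stood at 20.8 and 20.8 cRPKM in untreated neurons, 19.9 and 19.4 cRPKM at 0.5 h and 22.9 and 16.9 cRPKM at 3 h. The 3 h libraries fell on either side of the untreated ones, and the log2 difference was 0.00 ± 0.18 (SE; 95% interval −0.44 to 0.44). Pcdh18 (ENSMUSG00000037892, chromosome 3), whose tail binds the adaptor Dab1 in mouse, was the lowest member. Its level was 2.51 and 1.79 cRPKM in untreated neurons, 2.5 and 1.80 cRPKM at 0.5 h and 3.78 and 1.96 cRPKM at 3 h, with the groups overlapping. Its log2 difference at 3 h was 0.48 ± 0.39 (SE; 95% interval −0.47 to 1.44; adjusted p = 0.42, edgeR), an interval that leaves changes of either sign.

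Pcdh19 (ENSMUSG00000051323, chromosome X) encodes a partner of N-cadherin and of GABA-A receptors, and mutations of the human gene can cause an epilepsy of early childhood. Its level was 14.6 and 13.2 cRPKM in untreated neurons, 13.9 and 11.4 cRPKM at 0.5 h and 11.98 and 7.70 cRPKM at 3 h. Both 3 h libraries were below both untreated ones, though 3 h replicate 1 was above 0.5 h replicate 2. The log2 difference at 3 h was −0.43 ± 0.25 (SE; 95% interval −1.06 to 0.20; adjusted p = 0.28, edgeR; 0.054 with the replicate block). It passed only without 3 h replicate 1, at −0.84 (adjusted p = 0.043). Pcdh20 (ENSMUSG00000050505, chromosome 14), known in mouse for a role in olfactory axon sorting, stood at 5.26 and 8.27 cRPKM in untreated neurons, 5.15 and 7.31 cRPKM at 0.5 h and 5.81 and 6.74 cRPKM at 3 h. All 3 groups overlapped, and replicate 2 was the higher library in each. The log2 difference at 3 h was −0.05 ± 0.24 (SE; 95% interval −0.66 to 0.55).

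Across the family, 0 of 9 members were called at 0.5 h against untreated, where 0.0377% of all genes were called (6 higher and 0 lower; 100 and 28 at an unadjusted p under 0.05; 37 with DESeq2, 0 of them members; 0.0818% of genes with the replicate block). Log2 differences of the members ran from −0.20 for Pcdh1 to 0.14 for Pcdh8, with a median of −0.10 against 0.00 over all genes. The widest intervals, −0.97 to 0.93 for Pcdh18 and −0.65 to 0.94 for Pcdh8, do not exclude sizeable changes. In cRPKM the libraries of both groups did not overlap for Pcdh8 (higher) and for Pcdh1, Pcdh7 and Pcdh17 (lower), which is 4 of 9, beside 21.2% of all genes (14.8% higher and 6.38% lower).

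At 3 h against untreated, 1 of 9 members was called, Pcdh1, beside 15.6% of all genes (1384 or 8.71% higher and 1088 or 6.84% lower; 1115 and 1340 when scaled by library totals, which moved the median of all genes by less than 0.1). With the replicate block 2 members were called, Pcdh1 lower and Pcdh8 higher, beside 37.2% of genes. The member median was 0.00, against −0.02 over all genes. Groups did not overlap for Pcdh8 and Pcdh10 (higher) and for Pcdh1, Pcdh7 and Pcdh19 (lower), 5 of 9 members, where 60.0% of all genes did not overlap (24.1% higher and 35.9% lower). The plot of fold changes by time shows the members close to 0 at 0.5 h. At 3 h Pcdh1 and Pcdh8 lie at the ends, and the other 7 run from −0.43 for Pcdh19 to 0.48 for Pcdh18.

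**Figure D2:**
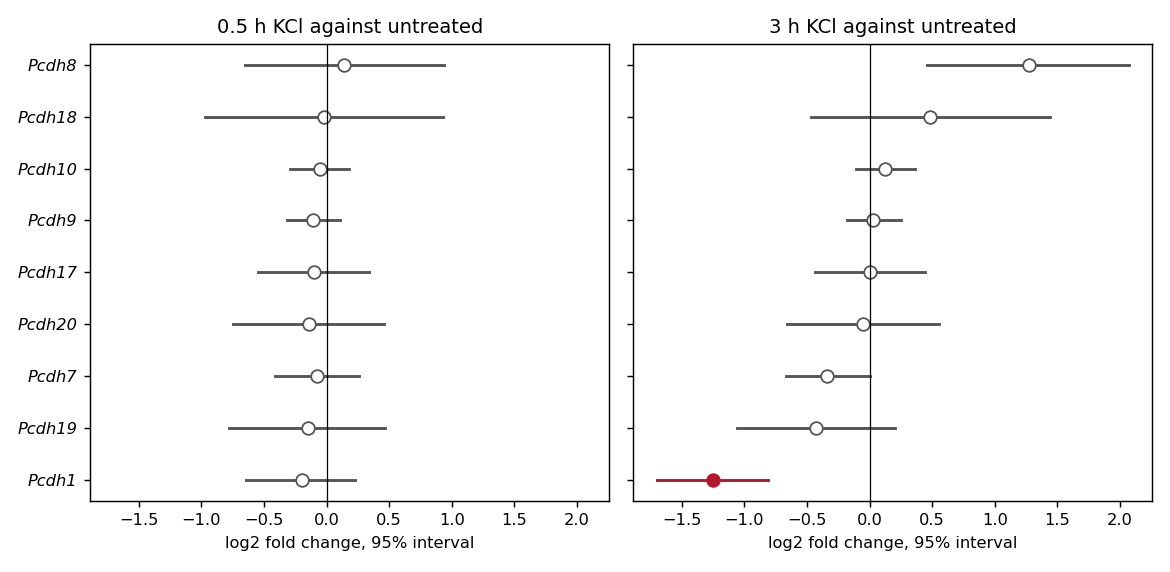
Log2 fold change of each member with its 95% interval from edgeR (horizontal axis), at 0.5 h (left) and at 3 h (right) of KCl against untreated neurons; filled red marks a call and open symbols no call. At 3 h Pcdh1 lies at −1.25 with an interval below 0, and Pcdh8 at 1.27 with an interval above 0 that did not pass after adjustment.

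Between the KCl times, Pcdh1 was again the only member called, beside 11.3% of all genes (6.39% higher and 4.87% lower). It was lower at 3 h than at 0.5 h by −1.05 ± 0.18 on the log2 scale (SE; 95% interval −1.49 to −0.61; adjusted p = 0.026, edgeR), a contrast that also tests whether the effect of KCl differed between the times. The call was lost in the fit of only the 4 libraries compared (adjusted p = 0.059), without untreated replicate 1 or 2 (0.059 and 0.057) and without 0.5 h replicate 1 or 2 (0.13 and 0.12). Pcdh8 differed by 1.12 ± 0.32 (SE; 95% interval 0.32 to 1.93; adjusted p = 0.081, edgeR; 0.036 with the block, which called 31.2% of genes). The other 7 ran from −0.28 for Pcdh19 to 0.50 for Pcdh18 and were not called. Groups did not overlap for Pcdh8, Pcdh9 and Pcdh10 (higher) and for Pcdh1 and Pcdh7 (lower), beside 56.4% of all genes (21.0% higher and 35.4% lower). This contrast shares its 3 h libraries with the previous one, and both comparisons with untreated neurons share the untreated libraries.

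**Figure D3:**
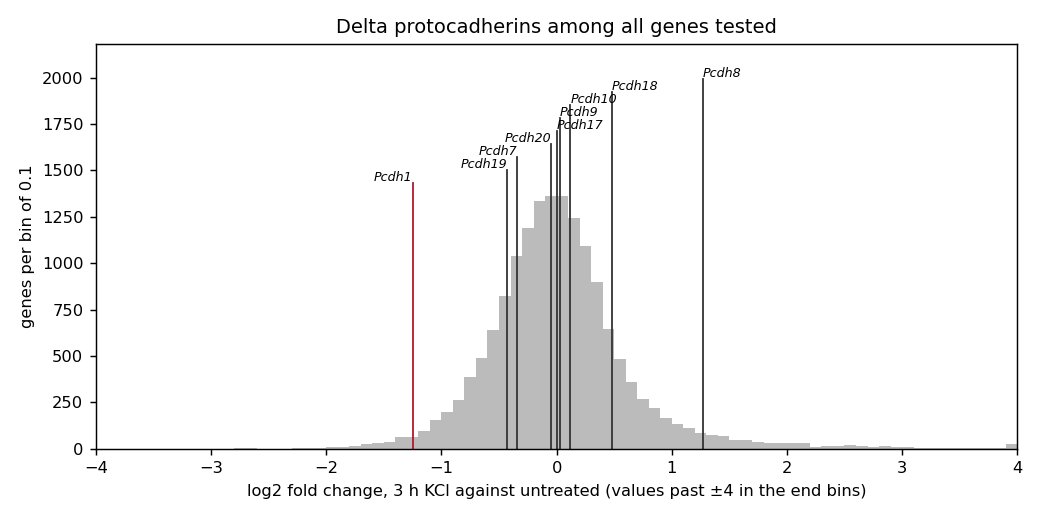
Number of genes per bin of 0.1 (vertical axis) by log2 fold change of 3 h KCl against untreated (horizontal axis), over 15895 genes, with a line for each member; the red line is the called member. Pcdh1 and Pcdh8 lie in the lower and upper flanks and the other 7 within the central mass.

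The order of levels within the family changed with time. In untreated neurons Pcdh1 (51.3 ± 3.15 cRPKM) and Pcdh8 (49.0 ± 0.339 cRPKM) led and overlapped, at the 93.0 and 92.7 percentile of all genes with values. They were followed by Pcdh10, Pcdh9, Pcdh17, Pcdh7, Pcdh19, Pcdh20 and Pcdh18, with no overlap between neighbours. At 0.5 h Pcdh8 (55.0 ± 2.61 cRPKM) stood above Pcdh1 (45.2 ± 1.12 cRPKM), and the rest kept that order. At 3 h Pcdh8 (112 ± 51.0 cRPKM) was first and Pcdh1 (20.6 ± 4.30 cRPKM) stood behind Pcdh10 and Pcdh9, overlapping Pcdh17 (SD, n = 2 throughout). Relative to the family sum, Pcdh1 took 23.6%, 21.4% and 8.51% in untreated, 0.5 h and 3 h neurons, and Pcdh8 took 22.5%, 26.0% and 46.5%.

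**Figure D4:**
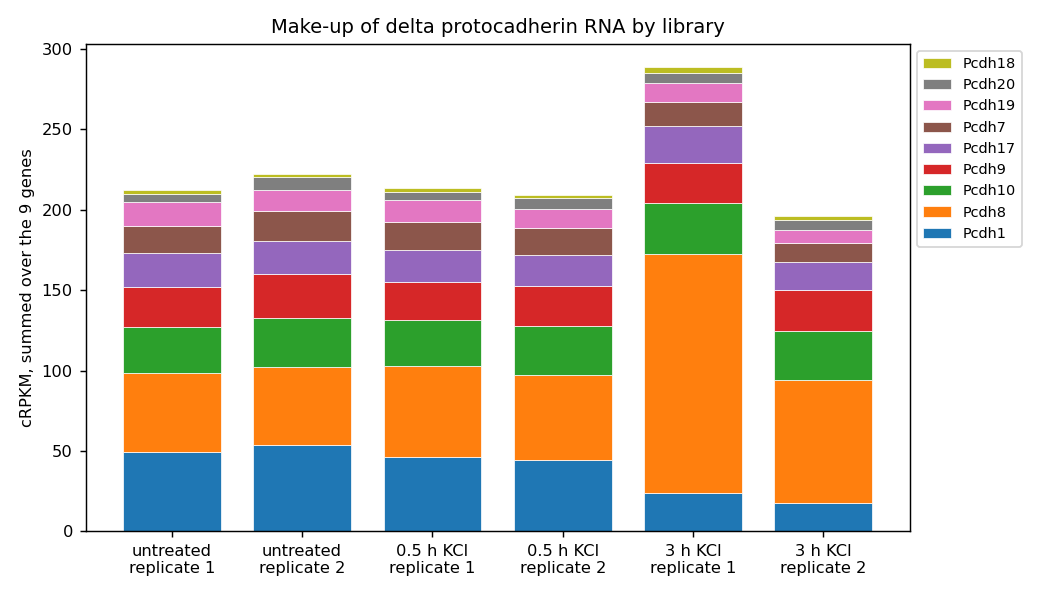
Summed level of the 9 genes in cRPKM (vertical axis) in each library, stacked by gene. The sum lies between 209 and 222 cRPKM in the untreated and 0.5 h libraries, and at 289 and 196 cRPKM at 3 h, where Pcdh8 takes the widest band.

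The summed level of the 9 genes was 289 and 196 cRPKM at 3 h against 212 and 222 cRPKM in untreated neurons, on either side of them. Without Pcdh8 and Pcdh1, the other 7 summed to 116 and 102 cRPKM at 3 h against 114 and 120 cRPKM. The 5 delta-2 genes summed to 219 and 134 cRPKM at 3 h against 116 and 115 cRPKM in untreated neurons, and Pcdh8 alone differed by as much.

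Differences between the libraries of a group recurred by replicate number for some members. Pcdh18 was higher in replicate 1 of all 3 groups, by 1.40, 1.39 and 1.93 times in untreated, 0.5 h and 3 h neurons, and so were Pcdh8 (1.01, 1.07 and 1.94) and Pcdh19 (1.11, 1.23 and 1.56). Pcdh20 was lower in replicate 1 throughout, at 0.636, 0.705 and 0.862 of replicate 2, and so was Pcdh9. For Pcdh8 the gap before 3 h was small. Over all genes tested, 19.5% were higher in replicate 1 of all 3 groups and 35.0% in replicate 2. Among the 9 members it was 3 and 2, so this recurrence was not particular to the family. Marker sums moved with replicate number too. Astrocyte markers reached 1118, 1239 and 1709 cRPKM in replicate 2 of the untreated, 0.5 h and 3 h groups and 707, 711 and 763 cRPKM in replicate 1. All 6 of 6 were higher in replicate 2 of all groups. Gfap was the largest part of that gap, at 307, 335 and 475 cRPKM in replicate 2 and 22.4, 22.8 and 24.6 cRPKM in replicate 1. Oligodendrocyte lineage markers summed to 290, 252 and 301 cRPKM in replicate 1 and to 200, 192 and 219 cRPKM in replicate 2. Their part in the members' spread was not tested.

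**Figure D5:**
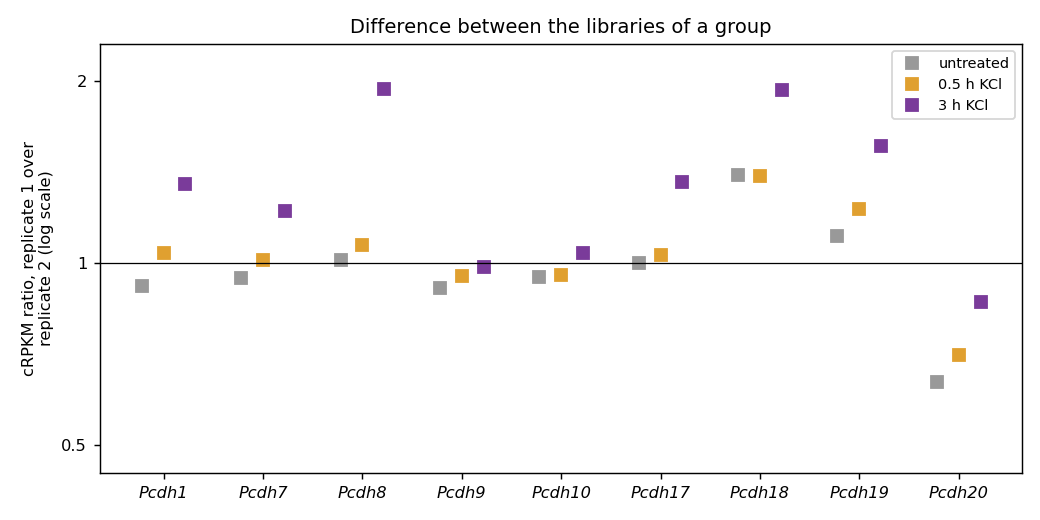
Ratio of replicate 1 to replicate 2 in cRPKM (vertical axis, log scale) for each member in each group; the line marks equal libraries. Pcdh8 is near 1 in untreated and 0.5 h neurons and at 1.94 at 3 h, and Pcdh20 lies below 1 in all 3 groups.

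By Euclidean distance over the 6 log2 CPM values, each taken from the gene's untreated mean, the genes nearest in pattern to Pcdh1 among 12148 with a mean of at least 1 cRPKM were Kcnk3, Col19a1 and Kcnj12, at distances of 0.22, 0.251 and 0.253. Kcnk3 and Kcnj12 encode potassium channels and Col19a1 a collagen. Kcnk3 stood at 1.70 and 1.32 cRPKM at 3 h against 3.94 and 3.73 cRPKM in untreated neurons, a log2 fall of −1.29 ± 0.19 (SE; adjusted p = 0.014, edgeR). Col19a1 and Kcnj12 were also called lower, at −1.15 ± 0.23 and −1.28 ± 0.22 (adjusted p = 0.029 and 0.021). All 3 are far less abundant than Pcdh1.

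Among related genes at 3 h, no clustered protocadherin was called. Of 21 beta cluster genes 0 were called, beside 15.6% of all genes, with a median log2 fold change of −0.25 and a range of −0.46 to 0.11 (0 higher and 7 lower with the block, which called 37.2% of all genes). The alpha and gamma clusters had values for 1 gene each, Pcdha11 at −0.47 and Pcdhgc4 at 0.02, and neither was called. With the block Pcdha11 was called lower (adjusted p = 0.037, edgeR) and Pcdhgc4 was not called. Exons shared within these clusters make values for single genes uncertain. None of the 4 other non-clustered protocadherins was called, with the delta-1 relative Pcdh11x at −0.43 ± 0.16 (adjusted p = 0.12, edgeR).

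Of 18 classical and type II cadherins tested, 2 rose and 2 fell at 3 h, beside 15.6% of all genes called, with a median of −0.17 against −0.02 over all genes. Cdh6 stood at 11.9 and 21.8 cRPKM at 3 h against 4.93 and 2.82 cRPKM in untreated neurons, a log2 rise of 2.16 ± 0.45 (SE; adjusted p = 0.034, edgeR). Cdh20 rose by 0.59 ± 0.10 (adjusted p = 0.022), and Cdh10 and Cdh22 fell, at −0.55 ± 0.09 and −0.92 ± 0.22 (adjusted p = 0.021 and 0.043). With the block 3 were higher and 6 lower, beside 37.2% of all genes called. Cdh2, the N-cadherin bound by Pcdh8 and Pcdh19, stood at 63.7 and 49.7 cRPKM at 3 h against 69.1 and 57.8 cRPKM, and was not called (−0.10 ± 0.20). Celsr2, a planar polarity cadherin, was the only 1 of 8 Fat, Dachsous and Celsr genes called, at −0.76 ± 0.15 (adjusted p = 0.031, edgeR; 1 higher and 2 lower with the block).

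Catenins, which tie classical cadherins to actin, were called in 3 of 9 cases, beside 15.6% of all genes. Ctnnd1, encoding p120-catenin, stood at 53.2 and 52.9 cRPKM at 3 h against 24.3 and 21.8 cRPKM in untreated neurons, a log2 rise of 1.26 ± 0.12 (SE; adjusted p = 0.0064, edgeR). Ctnna1, encoding alpha-E-catenin, rose by 1.03 ± 0.19 (adjusted p = 0.024), and Arvcf, a p120 relative, fell, at −0.51 ± 0.10 (adjusted p = 0.029). The median of the 9 was 0.02, and 3 were higher and 2 lower with the block, beside 37.2% of all genes. None of the 11 WAVE complex genes was called, with a median of −0.11 (0 higher and 1 lower with the block).

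A further list of 18 genes held partners of delta protocadherins, Cdh2 among them again. It also held genes of the same pathways, such as Mdm2, Fmr1 and the Mef2 genes. Of the 18, 2 rose at 3 h and 0 fell, beside 15.6% of all genes called. The median was 0.16 (5 higher and 2 lower with the block, beside 37.2%). Mdm2, the ubiquitin ligase that marks PSD-95, stood at 16.9 and 19.1 cRPKM at 3 h against 12.7 and 11.98 cRPKM in untreated neurons, a log2 rise of 0.59 ± 0.09 (SE; adjusted p = 0.014, edgeR). Ppp1cc, a catalytic subunit of protein phosphatase 1, rose by 0.44 ± 0.10 (adjusted p = 0.044) and was called in 0 of 6 fits that left out a library. Taok2 and Mapk14, the kinases named with Pcdh8, were not called (−0.17 ± 0.09 and 0.16 ± 0.08). Each of these calls on related genes at 3 h was lost both without untreated replicate 1 and without untreated replicate 2 (adjusted p = 0.054 to 0.29, edgeR). At 0.5 h, 0 genes of these lists of related genes were called. Between the KCl times, Cdh6, Cdh20, Ctnna1, Ctnnd1 and Mdm2 were higher at 3 h and Cdh10 and Arvcf lower. Of 13 alternatives, 11 kept the call of Ctnnd1 and 6 or 7 kept that of each of the other 6. These 6 were lost with only the 4 libraries compared and without any 1 of the untreated and 0.5 h libraries (adjusted p = 0.054 to 0.23, edgeR), and all of them but Ctnna1 also without 3 h replicate 2. Ctnnd1 was lost without either 0.5 h library (0.084 and 0.093).

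Pcdh8, Pcdh17, Pcdh20 and Pcdh9 lie in that order on chromosome 14, with 1, 2 and 0 protein-coding genes between neighbours, and Pcdh10 and Pcdh18 lie on chromosome 3 with 1 between them. At 3 h against untreated, Pcdh8 was at 1.27, and Pcdh17, Pcdh20 and Pcdh9 at 0.00, −0.05 and 0.03 on the log2 scale. Pcdh10 and Pcdh18 were at 0.12 and 0.48. None of these genes was called in the fit of all 6 libraries, and a link of position with change was not tested.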

How the data were processed

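Each deposited library lists Ensembl genes with an RPKM computed by the authors, called cRPKM in the deposited names and not defined in the sources used here, and a read count per gene that the authors left unnormalized. Of 22667 genes listed, 1114 have no value. Over 7690 genes with many counts, count over cRPKM followed the ratio of library totals within 0.00693%. The submitters' processing notes name Bowtie and mm9; their versions and the annotation are not stated. Libraries were made with TriReagent and TruSeq RNA V2 kits, per the labels' protocols, which do not mark strand. Symbols came from a later table of Ensembl gene names (20451 genes, 94.9%), and overlaps and gene order from a GENCODE annotation of a later build.

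The test was that of edgeR 4.0.16 (R 4.3.3) after TMM scaling, on 15895 genes kept by filterByExpr at a minimum count of 10 (1 quasi-likelihood fit of all 6 libraries, group as the only term, 3 residual degrees of freedom, Benjamini-Hochberg threshold 0.05). Differences between replicates correlated across genes with r of 0.81, 0.58 and 0.61 for the 3 pairs of groups; this pairing comes from the data and not the labels, and the replicate block was fitted as an alternative. Other alternatives were RLE factors, library totals, no filter, DESeq2 1.42.0, limma-voom (limma 3.58.1), only the 4 libraries compared, and each library left out. The 2 libraries of a group differed, on average over genes, by far more than counting noise (mean chi-square per gene of 118.4, 124.0 and 245.3), so none was merged. Members, gene lists and tests were chosen with earlier results of these data known. The text names all 9 members, the 3 nearest patterns of each called member, up to 4 called genes with the smallest p per list, and the activity and marker sums.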

Additional observations from a re-analysis of the deposited data

Results flagged for a closer look

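The effect of KCl on Pcdh1 differed between the times in the fit of all 6 libraries, though the difference did not pass in 5 of 13 alternatives. Its log2 fold change against untreated neurons was −1.25 ± 0.18 at 3 h and −0.20 ± 0.18 at 0.5 h (SE), and the contrast of 3 h with 0.5 h, which is the test of that difference, gave −1.05 (adjusted p = 0.026 in edgeR's quasi-likelihood test, lower in 2 of 2 libraries). The call was lost with only the 4 libraries compared (adjusted p = 0.059), without untreated replicate 1 or 2 (0.059 and 0.057) and without 0.5 h replicate 1 or 2 (0.13 and 0.12).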

How the results depend on the processing

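Over 351 values of members under the alternatives, 309 kept their direction and side of the threshold, 7 lost and 13 gained a call, and 22 changed sign, all of the last among members not called. The number of all genes called at 0.5 h was 6, and 13 with no filter, 37 with DESeq2 and 13 with the replicate block (0 to 6 with a library left out). At 3 h against untreated it was 2472, and 4157 with DESeq2, 5918 with the replicate block and 1067 with only the 4 libraries compared (38 to 3739). Between 3 h and 0.5 h it was 1789, and 3548, 4961 and 471 in the same order (0 to 2915), with 762 higher and 1037 lower by library totals against 1015 and 774. Members called at 3 h against untreated were 1, and 2 with library totals, no filter, DESeq2 or the replicate block, 0 to 4 with a library left out (Pcdh1, Pcdh7, Pcdh8 and Pcdh19 without 3 h replicate 1). Between the times they were 1, and 2 with DESeq2 or the replicate block, 0 with only the 4 libraries compared and 0 to 3 with a library left out. At 0.5 h they were 0 in every fit run. The block changed the call of no member other than Pcdh8.

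Signs turned for Pcdh9 at 3 h against untreated with library totals (−0.02) and for Pcdh17 with RLE factors, no filter, DESeq2 and only the 4 libraries compared (0.01 each). With a library left out, values against untreated ran at 0.5 h from −0.30 to 0.26 for Pcdh18, −0.33 to 0.00 for Pcdh19 and −0.42 to 0.21 for Pcdh20, and at 3 h from −0.02 to 0.09 for Pcdh9, −0.29 to 0.25 for Pcdh17, −0.13 to 0.92 for Pcdh18 and −0.34 to 0.29 for Pcdh20. Between the times they ran from −0.19 to 0.36 for Pcdh17, −0.11 to 0.94 for Pcdh18, −0.68 to 0.06 for Pcdh19 and −0.11 to 0.36 for Pcdh20. The cause was not tested. A fit that leaves an arm with 1 library assumes that it varies like the others. With 2 libraries per group, intervals are wide for Pcdh8, Pcdh18, Pcdh19 and Pcdh20. Values are per gene, so isoforms were not analysed here.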

Other observations

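The genes nearest in pattern to Pcdh8, a gene chosen for this after its values were seen, were Sntb2, Lipg and Clba1, at Euclidean distances of 0.197, 0.249 and 0.334 over 6 libraries. Each of them shared the wide gap between the 3 h libraries: Sntb2, which encodes a syntrophin, stood at 6.01 and 3.46 cRPKM at 3 h against 1.89 and 2.12 cRPKM in untreated neurons, Lipg, which encodes a lipase, at 9.58 and 4.45 against 3.24 and 3.23 cRPKM, and Clba1 at 21.0 and 13.1 against 6.57 and 7.37 cRPKM. In edgeR's test Sntb2 and Clba1 were called higher (adjusted p = 0.038 and 0.026) and Lipg was not (adjusted p = 0.081). Among the marker genes of neurons and of other cell types, Pdgfrb, a mural cell marker, was the only one called at 3 h, beside 15.6% of all genes. It stood at 0.86 and 1.07 cRPKM against 1.90 and 2.25 cRPKM in untreated neurons. Its list of 6 fibroblast and mural markers did not fall with it, at a median log2 fold change of 0.15. The list summed to 44.0 and 29.2 cRPKM at 3 h against 43.5 and 32.2 cRPKM. Col1a1, Col1a2, Col3a1 and Lum were higher at 3 h in both replicates, and Dcn in replicate 1 only.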
